A study of Mus musculus with 9 samples.

Results

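The Notch pathway was examined through 10 genes in mouse hepatic stellate cells: the receptors Notch1, Notch2, Notch3 and Notch4, the ligands Jag1, Jag2, Dll1 and Dll4, and the target genes Hes1 and Hey1. The members were chosen by name, as every non-control probe whose gene name in the scanner files is on that list, which gave 15 of 56605 probes and 10 of 37008 gene names. Of the 10 genes, 9 were tested, each through a probe that every array of some group showed well above background, and 23965 genes were tested in all. Jag2 had no such probe and was not tested.

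Notch receptors are membrane proteins that bind Jagged and Delta-like ligands on neighbouring cells. Binding lets the protease ADAM10 and then the gamma-secretase complex cut the receptor, and the freed intracellular domain joins the DNA-binding protein RBPJ and Mastermind coactivators to switch on genes such as those of the HES and HEY transcriptional repressors. In the liver the pathway is known for the Jag1 and Notch2 signal that shapes bile ducts, for Dll4 and Notch4 in endothelium, and for Notch3 in the contractile cells around vessels.

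The study measured gene expression in primary hepatic stellate cells, the vitamin A-storing pericytes of the liver, which become contractile, collagen-producing cells in culture. Cells came from C57BL/6 mice 10 weeks old and were profiled on 9 single-colour Agilent arrays in 3 groups of 3. The first group was activated cells that had spent 7 days on plastic and then received 5 nM siRNA to silence Cav1, which encodes the caveolar coat protein caveolin-1 (Cav1-siRNA cells). The second was activated cells handled alike with 5 nM of a negative control siRNA (control-siRNA cells), and the third was cells labelled quiescent, with no treatment (quiescent cells). The labels give no harvest time for the quiescent cells and do not say that replicates came from separate animals or cultures, so that p-values reflect the spread of these samples alone, which may be technical. Activation, time on plastic and transfection all differ between control-siRNA and quiescent cells and cannot be told apart. The signal of markers of other liver cells differs between these groups as well, as given below, and cannot be separated from them.

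Each array probe is a 60-base oligonucleotide that captures the labelled copy of its transcript, and each tested member rests on 1 such probe. The central 30 bases of these 9 probes are given from the scanner files, 5′ to 3′, so that the transcript region behind each value can be found. For Notch4 and Hes1 the 30 bases are those around an AATAAA hexamer, the polyadenylation signal, in capitals, since these 2 probes contain that sequence. Positions are on the mouse build mm9, with the strand of the probe, as the files give them. Exon and UTR annotation on mm9 was not used here.
Notch1, chr2:26319440-26319499, minus strand: ggccttgagacaggcaacagtgaagaagaa
Notch2, chr3:97953914-97953973, plus strand: catagaaatgaaccaaaggtgttcagtgtt
Notch3, chr17:32257888-32257947, minus strand: tcctgttgttctcttggctcagcctgccta
Notch4, chr17:34725384-34725442, plus strand: aaactcatggatAATAAAgctaatttgaag
Jag1, chr2:136907433-136907492, minus strand: gctagttgaatacttgaaccgtaaaatgtc
Dll1, chr17:15504623-15504682, minus strand: gtctttccttgaactagaaacacaactgcc
Dll4, chr2:119160779-119160838, plus strand: tcctcacagctgggcccaaatgagaaagca
Hes1, chr16:30067820-30067879, plus strand: ttgagaaaatatAATAAAagagtgaaggct
Hey1, chr3:8663432-8663491, minus strand: agtattgttttacaggcttacccctttaga

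The remaining 6 member probes were not well above background on all arrays of any group and give no value. They are the Jag2 probe at chr12:114146887-114146946, a second probe each for Notch1, Notch2 and Dll1, and a pair of further Notch4 probes. Of that pair, a probe at chr17:34721567-34721775 lies in the same transcript as the tested Notch4 probe, while a probe at chr17:35104770-35104829 comes from a separate cloned sequence. No member was therefore measured by more than 1 probe, and no agreement between probes of a member could be checked.

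Values are log2 signals relative to the array's 75th percentile, so that 0 is a probe as bright as that percentile and 1 unit is a factor of 2. Levels are compared between groups for a probe and never between probes. Probes above background made up 60.1 to 64.0% with Cav1 siRNA, 61.9 to 69.0% with control siRNA and 51.5 to 58.4% on the quiescent arrays, the lowest being quiescent array 2. The median within-group SD over all genes was 0.12 in Cav1-siRNA cells, 0.16 in control-siRNA cells and 0.35 in quiescent cells. The arrays sat on 2 slides, with the quiescent arrays and control-siRNA array 1 on slide 1 and all others on slide 2. Quiescent array 2 stood apart, in that all 9 tested members were higher there than on both other quiescent arrays, as were 33.1% of all genes, and values without it are given with the slide values. Cav1 itself had -2.88, -2.89 and -3.07 with Cav1 siRNA, -1.34, -1.12 and -1.09 with control siRNA and -4.87, -5.65 and -5.84 on the quiescent arrays. Every Cav1-siRNA array was below every control-siRNA array, as labelled (log2 change -1.76, SE 0.24, limma adjusted p = 0.145).

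The label of the quiescent cells was set against marker lists. Lrat, which makes the stored retinyl esters of stellate cells, averaged 0.55 ± 0.72 (SD, n = 3) on the quiescent arrays and was not above background on any activated array, where it was at least 104-fold lower in control-siRNA cells. The stellate markers Des and Gfap were not above background on all arrays of any group. The quiescent arrays also carried signal for markers of other liver cells, such as the hepatocyte enzyme gene Pck1 (7.39 ± 0.13, SD, n = 3), the sinusoidal endothelial lectin gene Clec4g (7.71 ± 0.37) and the Kupffer cell lectin gene Clec4f (5.83 ± 0.48). In control-siRNA cells the myofibroblast marker Acta2, the gene of smooth muscle actin, averaged 7.42 ± 0.04, against -0.95 ± 0.74 in quiescent cells.

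The first comparison, control-siRNA against quiescent cells, describes how the Notch genes differ between cells activated in culture and quiescent cells. Control-siRNA cells had more Notch2, Notch3 and Jag1 and less Notch4, Dll1, Dll4 and Hey1 than quiescent cells, while Notch1 and Hes1 did not pass the test. The rises reached 4.90-fold, for Jag1, and the falls 16.3-fold, for Dll1, or at least 15.6-fold for Dll4, which was below background in control-siRNA cells. The size of these falls depended on the background correction. With another one, normexp, the log2 change was -2.08 and -1.80 for Dll1 with the 75th percentile and with quantiles. Notch4 then fell most among the members, at -3.29 and -3.38. In this comparison 7 of the 9 tested members passed an adjusted p of 0.05 in limma, where 68.1% of all genes did. The 3 that rose and the 4 that fell stand beside 42.1% of all genes rising and 26.0% falling. Among those that fell, Dll4 passed the probe filter only through the quiescent arrays, which fixed its direction. The 7 were also those whose control-siRNA and quiescent arrays did not overlap, as held for 69.8% of all genes. The median log2 change over the tested members was -0.16 and that over all genes +0.32, so that a change is also given relative to that median.

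**Figure D1:**
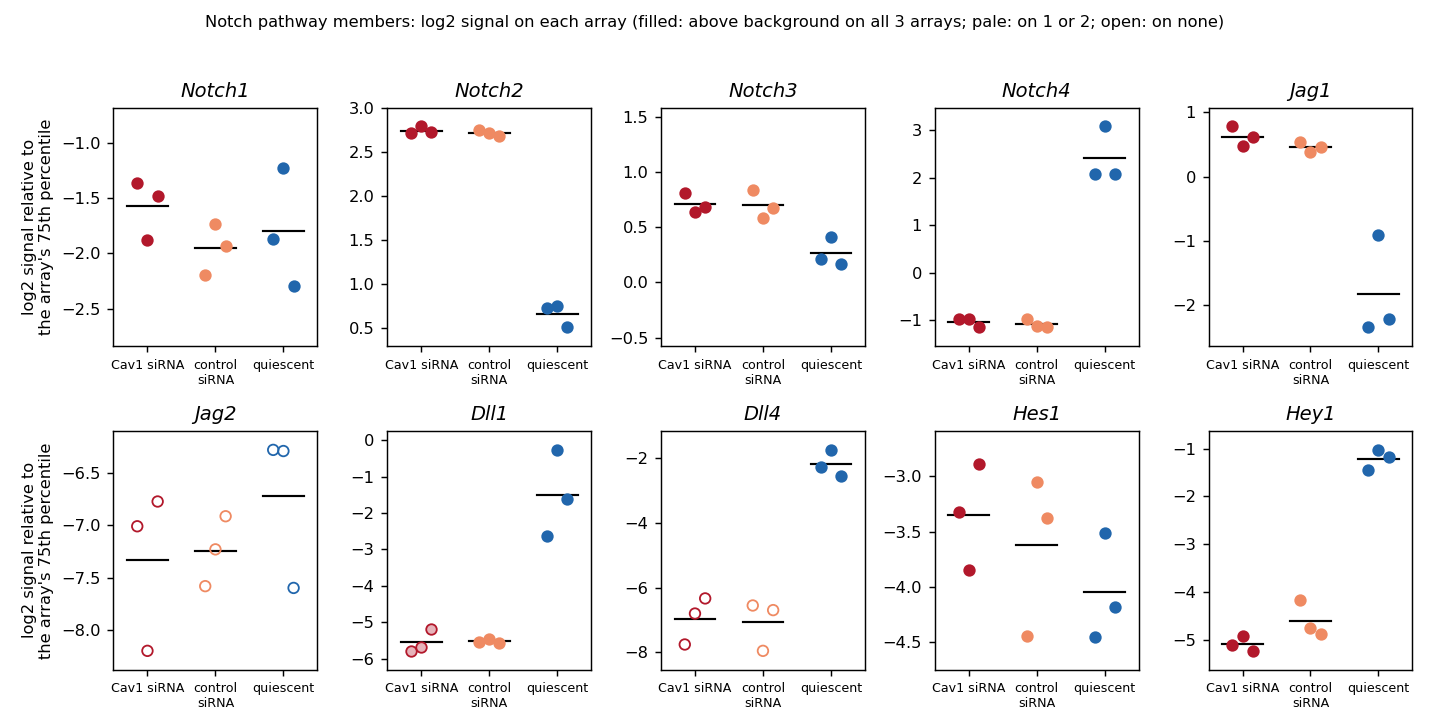
Log2 signal relative to the array's 75th percentile (vertical axes, which differ between panels) of the 10 Notch genes on each array, for Cav1-siRNA, control-siRNA and quiescent cells from left to right. Points are arrays and bars are group means. Filled points mark a gene above background on all 3 arrays of the group, pale points on some and open points on none. Notch2 and Jag1 sit higher in both activated groups than in quiescent cells, and Notch4, Dll1, Dll4 and Hey1 sit lower.

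Among the receptors, Notch2, the receptor of bile duct formation, showed the larger rise. It had 2.72, 2.79 and 2.72 with Cav1 siRNA, 2.75, 2.72 and 2.69 with control siRNA and 0.73, 0.75 and 0.50 on the quiescent arrays. All control-siRNA arrays were above all quiescent arrays, and the 2 activated groups overlapped. The log2 change in control-siRNA against quiescent cells was +2.06 (SE 0.13, 95% interval 1.77 to 2.35, 4.17-fold, limma adjusted p = 7.7e-07), or +1.74 relative to the median of all genes.

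Notch3, the receptor of vascular smooth muscle and pericytes, had 0.81, 0.64 and 0.69 with Cav1 siRNA, 0.83, 0.58 and 0.67 with control siRNA and 0.22, 0.41 and 0.17 on the quiescent arrays. The control-siRNA arrays were again all above the quiescent ones, by a small distance. Its log2 change was +0.43 (SE 0.14, 95% interval 0.12 to 0.74, 1.35-fold, limma adjusted p = 0.0205), which is +0.11 relative to the median of all genes. The call was lost without control-siRNA array 1 (+0.36, limma adjusted p = 0.0655), without control-siRNA array 3 (+0.44, adjusted p = 0.0551) and with the Cav1-siRNA arrays left out of the fit (adjusted p = 0.0692).

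Notch4, the receptor best known from endothelial cells, moved the other way. It had -0.98, -0.98 and -1.14 with Cav1 siRNA, -0.97, -1.12 and -1.15 with control siRNA and 2.08, 3.08 and 2.08 on the quiescent arrays. Every activated array was far below every quiescent array, and quiescent array 2 was the highest. The log2 change was -3.50 (SE 0.26, 95% interval -4.08 to -2.91, 11.3-fold lower in control-siRNA cells, limma adjusted p = 2.6e-06), or -3.82 relative to the median.

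Notch1, the receptor studied most widely in blood vessels and lymphoid cells, had -1.37, -1.88 and -1.49 with Cav1 siRNA, -2.20, -1.73 and -1.93 with control siRNA and -1.87, -1.23 and -2.29 on the quiescent arrays. The groups overlapped, with the quiescent arrays spanning the control-siRNA ones. The log2 change was -0.16 (SE 0.27, 95% interval -0.78 to 0.47, limma adjusted p = 0.632), so that changes within that interval were not excluded.

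Of the ligands, Jag1, the Jagged ligand paired with Notch2 in bile duct formation, had 0.78, 0.47 and 0.61 with Cav1 siRNA, 0.54, 0.39 and 0.46 with control siRNA and -2.36, -0.91 and -2.22 on the quiescent arrays. All activated arrays were above all quiescent arrays, of which array 2 was the nearest to them. The log2 change in control-siRNA against quiescent cells was +2.29 (SE 0.34, 95% interval 1.52 to 3.06, 4.90-fold, limma adjusted p = 2.8e-04), or +1.97 relative to the median of all genes. Jag2, the second Jagged ligand, lay between -8.20 and -6.28 on the 9 arrays and was not well above background on any of them.

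The Delta-like ligands were measured mainly in quiescent cells. Dll1, a ligand for Notch receptors in many developing tissues, had -5.78, -5.68 and -5.18 with Cav1 siRNA, -5.55, -5.47 and -5.56 with control siRNA and -2.62, -0.27 and -1.61 on the quiescent arrays. Its control-siRNA arrays lay together and far below the quiescent arrays, which spread widely. The log2 change was -4.03 (SE 0.49, 95% interval -5.14 to -2.91, 16.3-fold lower in control-siRNA cells, limma adjusted p = 7.8e-05), or -4.34 relative to the median. Without quiescent array 2, the brightest for Dll1, it was -3.41 (limma adjusted p = 2.6e-05). After normexp it was smaller, at -2.08 with the 75th percentile and -1.80 with quantiles.

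Dll4, the Delta-like ligand of endothelial tip cells, was not well above background with Cav1 siRNA, where its signals were -7.75, -6.80 and -6.33, nor with control siRNA, where they were -6.55, -7.95 and -6.69. In quiescent cells it was above background on every array, at -2.28, -1.75 and -2.54. The probe passed the filter only through the quiescent arrays, so that a fall was the only direction it could show. Its p-value therefore adds no support for a fall. Dll4 was at least 15.6-fold lower in control-siRNA cells than in quiescent cells (limma adjusted p = 1.3e-05). That bound takes, for each control-siRNA array, the dimmest signal that still counted as above background. This bound and the others given here apply to the scanner's processed signal, and another background correction gave smaller changes of the dim genes, whose values follow.

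Among the targets, Hey1, a HEY-family repressor induced by Notch in endothelial and mesenchymal cells, had -5.11, -4.92 and -5.23 with Cav1 siRNA, -4.17, -4.76 and -4.87 with control siRNA and -1.44, -1.03 and -1.17 on the quiescent arrays. All quiescent arrays were far above both activated groups. The activated groups did not overlap, but only just, with -4.87 on the lowest control-siRNA array and -4.92 on the highest Cav1-siRNA array. Their difference was not called (limma adjusted p = 0.998). The log2 change in control-siRNA against quiescent cells was -3.39 (SE 0.21, 95% interval -3.87 to -2.91, 10.5-fold lower in control-siRNA cells, limma adjusted p = 8.4e-07), or -3.71 relative to the median. After normexp it was smaller, at -2.02 with the 75th percentile and -1.78 with quantiles.

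Hes1, the HES-family repressor widely used as a readout of Notch signalling, had -3.32, -3.85 and -2.88 with Cav1 siRNA, -4.44, -3.05 and -3.38 with control siRNA and -4.45, -3.51 and -4.18 on the quiescent arrays. The groups overlapped, and control-siRNA array 1 lay next to the lowest quiescent array. The log2 change was +0.42 (SE 0.41, 95% interval -0.50 to 1.35, limma adjusted p = 0.377). Its sign was not fixed, since it was -0.40 within slide 1 (adjusted p = 0.492) and -0.18 after another background correction, normexp, with the 75th percentile (adjusted p = 0.316). With normexp and quantile scaling it was +0.24 (adjusted p = 0.211).

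**Figure D2:**
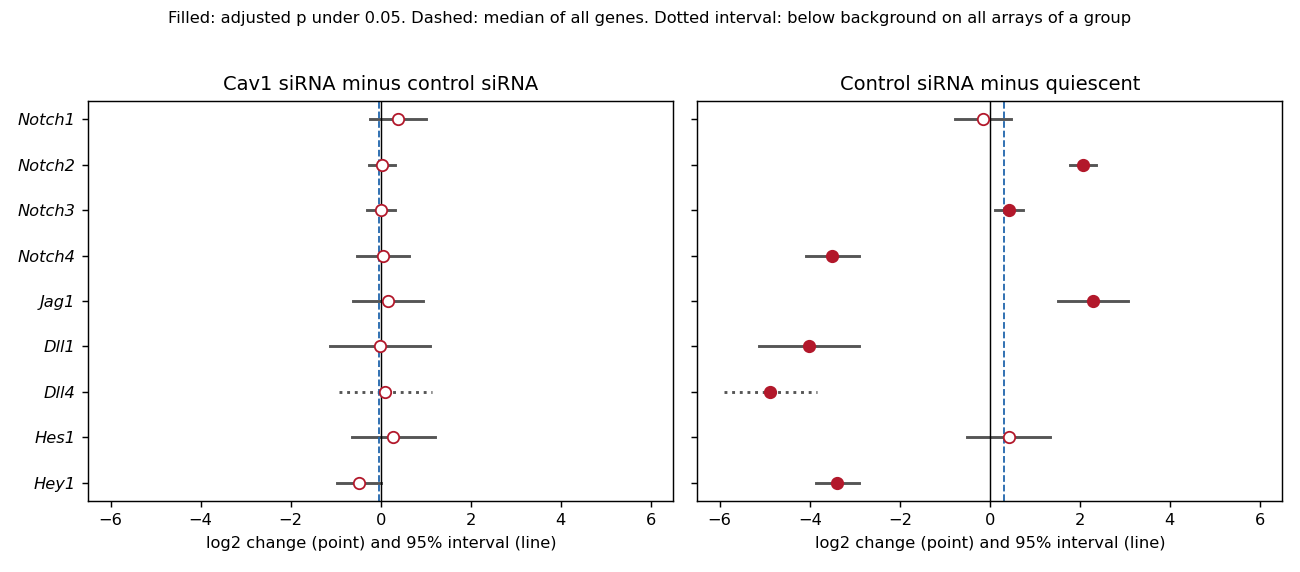
Log2 change (horizontal axis) of the 9 tested Notch genes with its 95% interval, for Cav1-siRNA minus control-siRNA cells (left) and control-siRNA minus quiescent cells (right). Filled points passed an adjusted p of 0.05, dotted intervals mark Dll4, which was below background on all arrays of a group, and dashed lines are the median of all genes. All 9 points on the left are open, and 7 of the 9 on the right are filled.

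Slide and group overlapped in part, and only control-siRNA array 1 shared slide 1 with the quiescent arrays. Within slide 1 the log2 changes in control-siRNA against quiescent cells were +2.09 for Notch2, +0.57 for Notch3, -3.39 for Notch4 and -0.40 for Notch1. They were +2.37 for Jag1, -4.05 for Dll1, -2.96 for Hey1 and a fitted -4.36 for Dll4. The 7 called members were all called there too, with limma adjusted p up to 0.0373, for Notch3, where the lone control-siRNA array is assumed to vary like the other groups. Without quiescent array 2 the 7 were called again, at +2.11 for Notch2, +0.50 for Notch3, -3.16 for Notch4, +2.75 for Jag1, -3.41 for Dll1, -3.29 for Hey1 and a fitted -4.66 for Dll4. Notch1 was then +0.13 and Hes1 +0.69, neither called.

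Over 23 alternative settings, Notch2, Notch4, Jag1 and Hey1 were called in all 23, and Dll1 and Dll4 in the 22 that could test them, each in the reported direction. For Dll4 that direction was fixed by the probe filter wherever the filter was kept. The settings are not separate checks. Slide as a block and within slide gave the same values, and several others keep the reported log2 change and alter only its p-value. Notch2 lay between +1.85 and +2.21, Jag1 between +1.82 and +2.75 and Notch4 between -3.67 and -3.16. The 2 normexp settings gave smaller falls of the dim genes, to -2.08 and -1.80 for Dll1, to -1.87 and -1.50 for Dll4 and to -2.02 and -1.78 for Hey1. Notch3 was called in 20 of the 23, and its change relative to the median of all genes lay between +0.03 and +0.64. Notch1 and Hes1 were called in none.

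**Figure D3:**
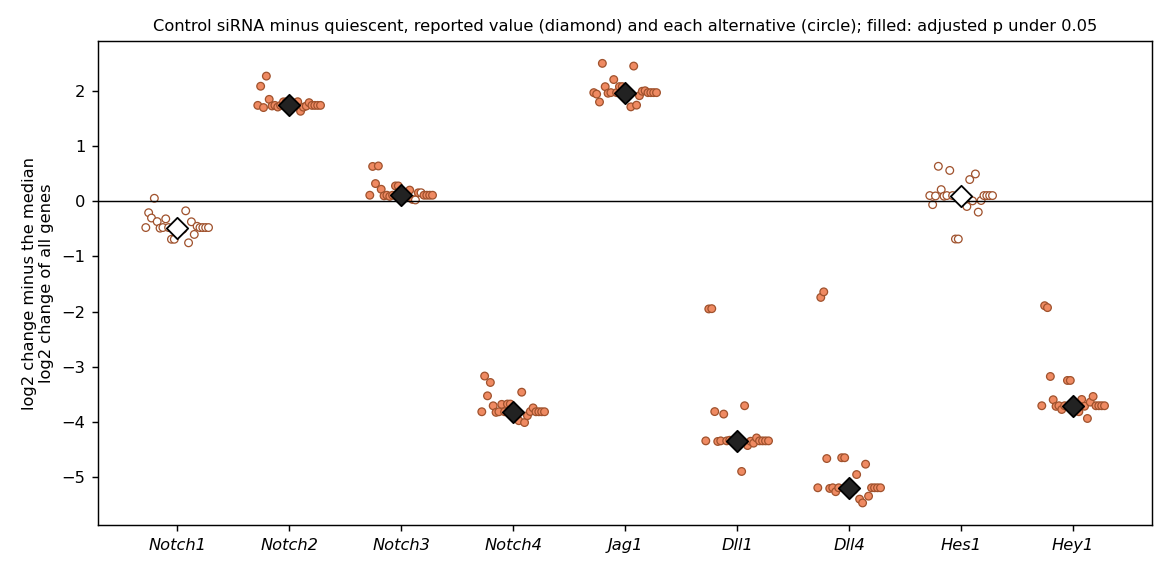
Log2 change in control-siRNA minus quiescent cells, less the median log2 change of all genes (vertical axis), for the 9 tested Notch genes. Diamonds are reported values, circles the alternative settings, and filled symbols passed an adjusted p of 0.05. Notch2 and Jag1 stay above 0 and Notch4, Dll1, Dll4 and Hey1 below it in every setting that tested them, while Notch1 and Hes1 have circles on both sides of 0.

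Markers of other cell types differed between the same groups. All 25 endothelial markers fell in control-siRNA against quiescent cells (median log2 change -8.39), and their summed signal, in multiples of the array's 75th percentile, was 5.18 to 5.77 with control siRNA and 579 to 951 on the quiescent arrays. Of the 25, the 7 genes Cdh5, Tek, Tie1, Erg, Emcn, Gpr182 and Sox18 were not above background on any control-siRNA array. The rest of the list was above background on some or all of those arrays. Notch4, Dll4 and Hey1, which fell, are known from endothelial cells as well as from other types. Notch1, studied in blood vessels too, was not called (log2 change -0.16), and Jag1 rose (+2.29). All 16 hepatocyte markers fell as well, with sums of 17.2 to 21.7 with control siRNA and 1690 to 1957 on the quiescent arrays. The 14 macrophage markers all fell, with sums of 33.5 to 37.3 in control-siRNA cells and 415 to 648 in quiescent cells. So did the 14 lymphocyte and neutrophil markers, with sums of 1.29 to 1.50 in control-siRNA cells and 36.6 to 73.9 in quiescent cells. In these bulk samples fewer cells of a type and less RNA per cell cannot be told apart, and the part of other cell types in the changes of the Notch genes was not tested.

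The members that rose stand beside other lists. Of 6 tested cholangiocyte markers out of 12, 2 rose and 3 fell. The median log2 change of those 6 was -1.23. Their summed signal was 27.3 to 33.1 with control siRNA and 5.33 to 7.63 on the quiescent arrays. Nearly all of the control-siRNA sum came from 1 of the 6, Spp1, which activated stellate cells also make, so that the sum does not show a rise of the list. Of 10 markers of activated stellate cells, 9 rose, with sums of 808 to 823 in control-siRNA cells and 12.8 to 33.7 in quiescent cells. Of 12 tested stellate cell markers, 2 rose and 7 fell, and the sums overlapped, at 51.2 to 53.1 in control-siRNA cells and 36.2 to 91.3 in quiescent cells. Of 10 smooth muscle and pericyte markers, 4 rose and 4 fell, and of 12 mesothelial and portal fibroblast markers, 8 rose and 4 fell.

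**Figure D4:**
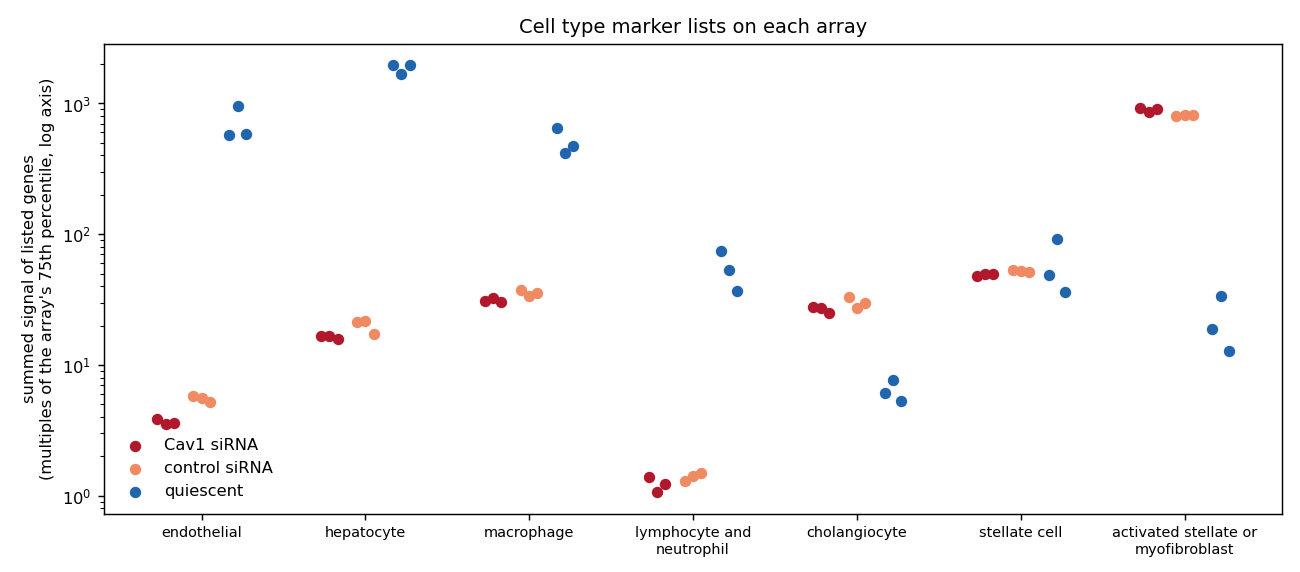
Summed signal of each marker list on each array (vertical log axis, in multiples of the array's 75th percentile) for Cav1-siRNA, control-siRNA and quiescent cells, left to right within each list. Endothelial, hepatocyte, macrophage and lymphocyte sums are lower on all activated arrays than on all quiescent arrays, and the activated stellate sum is higher.

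The other genes of the pathway were read from lists by role, 95 genes of which 89 were tested. In control-siRNA against quiescent cells 44 rose, 25 fell and 20 were not called, with a median log2 change of +0.46. Over all genes 68.1% were called, with 42.1% higher and 26.0% lower and a median of +0.32. The counts by role stand beside those shares and are not read as particular to the pathway. Counts per role follow, with the called genes of largest change. Genes given as a bound in this comparison passed the probe filter only through groups where they were high, which fixed their direction.

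Of 7 other or non-canonical ligands, 3 rose and 3 fell. Dlk1, a Delta-like protein without the usual receptor-binding domain, was at least 762-fold higher in control-siRNA cells, and its quiescent arrays were all below background. The microfibril genes Mfap2 (at least 6.75-fold lower) and Mfap5 (log2 change -2.41) and the contactin gene Cntn6 (-1.61) fell. A second Dlk1 probe gave +8.03. After normexp, with the 75th percentile and with quantiles, the log2 changes were +7.28 and +7.62 for Dlk1, -1.20 and -0.71 for Mfap2, -1.43 and -1.16 for Mfap5 and -1.02 and -0.63 for Cntn6, each still called. Of 7 genes of ligand endocytosis, which gives ligands their pull on the receptor, 2 rose and 3 fell. The ubiquitin ligase genes Neurl1a (+2.38) and Neurl1b (+2.31) rose, while Neurl3 (-7.32) and the endocytic adaptor gene Epn1 (-1.05) fell. Neurl3 gave -4.74 on a second probe and -5.42 and -5.37 after normexp.

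Of 9 receptor glycosylation genes, 6 rose and 2 fell. Poglut1, which adds O-glucose to the receptor, rose (+2.13), as did Xxylt1 (+1.76) and Gxylt2 (at least 35.1-fold), which extend that sugar with xylose. A second Gxylt2 probe gave a log2 change of +1.44, and normexp gave +3.06 and +3.45 for the first. Other Poglut1 probes gave +2.20, +1.1 and +2.85. Mfng, a member of the Fringe family that extends O-fucose, fell by 8.04 on the log2 scale, with -5.53 and -5.46 after normexp. Of 10 genes of receptor cleavage, 7 rose and 2 fell. The protease gene Adam10 (+1.73) and the gamma-secretase subunits Aph1b (+2.26) and Ncstn (+1.13) rose, and the presenilin Psen2 fell (-1.74), although another Psen2 probe gave +0.09 (limma adjusted p = 0.818) and the mean of both -0.82.

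Of 10 genes of the RBPJ complex, 4 rose, 1 fell and 5 were not called. Rbpj itself, the DNA-binding partner of all 4 receptors, rose (+1.54, SE 0.15, limma adjusted p = 1.5e-05), and so did the coactivators Kat2a (+0.92) and Maml2 (+0.71). Crebbp was called lower (-0.86), but its other probes gave +0.48 and +0.23, neither called, and the mean of its probes -0.05 (adjusted p = 0.757). Of 16 corepressors, 7 rose and 4 fell. The Groucho-family genes Tle1 (-3.39) and Tle4 (-2.96) and the LIM protein gene Fhl1 (-2.56) fell, and a second Tle4 probe gave -2.12. Tle3 rose (+2.17), with its other probes at -0.22, +1.27 and +1.35.

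Of 12 inhibitors and turnover genes, 5 rose and 4 fell. Nrarp, a Notch target that limits the pathway, was at least 13.2-fold lower in control-siRNA cells, and Dtx1, a ubiquitin ligase that binds the receptor's intracellular domain, fell by 6.06 on the log2 scale. After normexp, with the 75th percentile and with quantiles, the log2 changes were -1.79 and -1.35 for Nrarp and -3.94 and -3.82 for Dtx1, all called. Numbl (+3.02), a relative of the Notch inhibitor Numb, and Dtx3 (+2.12, or +1.52 with normexp and the 75th percentile) rose. Of 6 tested HES and HEY relatives out of 10, 1 rose and 4 fell, with a median log2 change of -0.83. Heyl, the third HEY gene, was at least 8.25-fold lower in control-siRNA cells, and Bhlhe40 (-1.86) and Hes6 (-1.16) fell. The log2 change of Heyl was -1.50 and -1.05 after normexp, both called. Bhlhe41 was called higher, by at least 1.34-fold (fitted log2 change +1.56, limma adjusted p = 0.0262), but not stably. It was -0.25 with normexp and the 75th percentile (adjusted p = 0.132) and +0.31 with normexp and quantiles (adjusted p = 0.0173). Its call was also lost with slide as a block or within slide (adjusted p = 0.122), with only the 2 groups fitted (adjusted p = 0.0536) and without control-siRNA array 1 (adjusted p = 0.0668) or 3 (adjusted p = 0.0742). Leaving out quiescent array 1 gave +0.84, still called. Hes3, Hes5, Hey2 and Helt were not above background on all arrays of any group and were not tested.

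Of 13 other reported targets, 9 rose and 3 fell. Acta2 (+8.37), the receptor gene Pdgfrb (+4.51) and the transcription factor gene Snai1 (+2.86) rose, and Nrarp, which is on this list too, was the largest fall. The other Acta2 probes gave +9.07, +2.03 and +0.30, the last of these not called, and the mean of its probes +4.94. Without quiescent array 2, Pdgfrb was +5.22 and Snai1 +3.52. The targets moved in both directions: Hey1, Heyl and Nrarp fell, Hes1 was not called, and Acta2 and Pdgfrb, which mark stellate cell activation as well, rose.

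**Figure D5:**
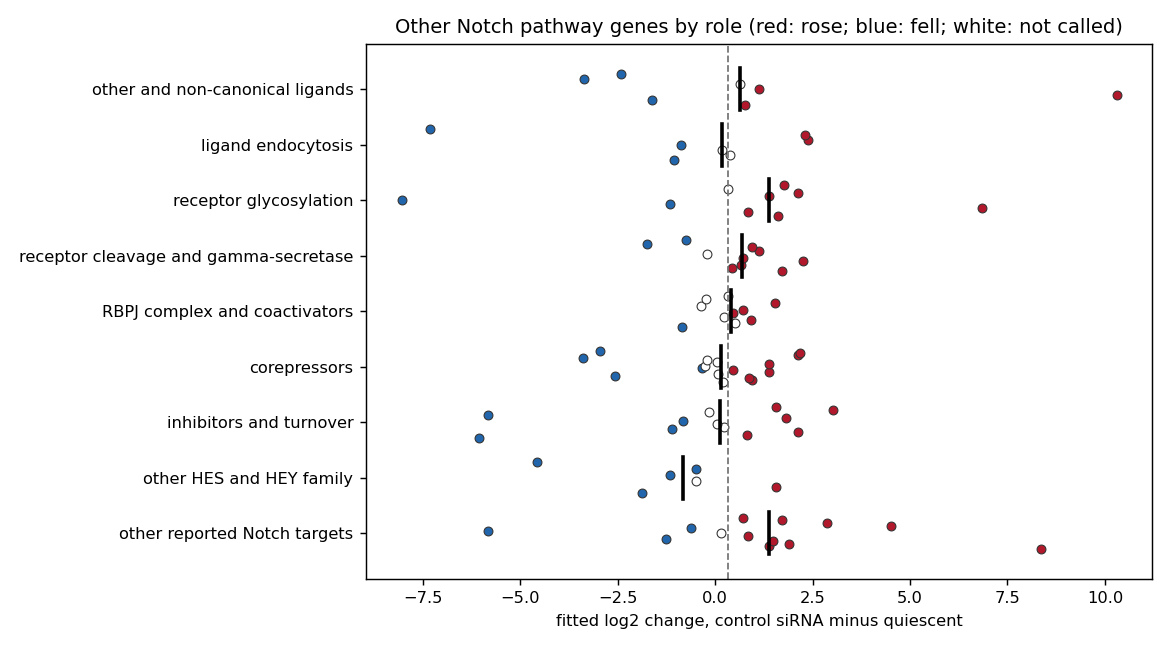
Fitted log2 change in control-siRNA minus quiescent cells (horizontal axis) of the other Notch pathway genes, by role. Each point is a gene, red where it rose, blue where it fell and white where it was not called. Bars are list medians and the dashed line is the median of all genes. HES and HEY relatives have the lowest median, at -0.83.

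The second comparison, Cav1-siRNA against control-siRNA cells, describes the Notch genes after the knockdown of Cav1. None of the 9 tested members was called by limma at an adjusted p of 0.05, and 0% of all genes were. At an unadjusted p of 0.05, 1 member and 1189 of the 23965 genes passed. That member, Hey1, was also the only one whose Cav1-siRNA and control-siRNA arrays did not overlap, as held for 22.6% of all genes. The median log2 change was +0.05 over the tested members and -0.04 over all genes. The control-siRNA arrays are shared with the first comparison, so that the changes of a gene in both are not independent.

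Hey1 averaged -5.09 ± 0.16 in Cav1-siRNA cells and -4.60 ± 0.37 in control-siRNA cells (SD, 3 arrays each). Its log2 change was -0.48 (SE 0.21, 95% interval -0.96 to -0.004, limma unadjusted p = 0.0484, adjusted p = 0.998). Control-siRNA array 1, on the other slide, was the highest of its group, and within slide 2 the change was -0.27. The normexp settings gave -0.12 and -0.10. Over the 23 alternatives the change was negative in all and called in none, with adjusted p from 0.148.

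Intervals for the other members differed in width. For the receptors the log2 change was +0.03 for Notch2 (95% interval -0.26 to 0.31), +0.01 for Notch3 (-0.30 to 0.33), +0.05 for Notch4 (-0.54 to 0.63) and +0.38 for Notch1 (-0.25 to 1.00). The intervals of Notch2 and Notch3 were the narrow ones, while that of Notch1 reached 1.00. The fit shares its spread over all 3 groups, so that these widths also carry the spread of the quiescent arrays. Notch4, for instance, had an SE of 0.26, with an SD of 0.10 in both activated groups and 0.58 in quiescent cells. Among the ligands, the log2 change was +0.16 for Jag1 (-0.61 to 0.93) and -0.02 for Dll1 (-1.14 to 1.09), which was above background on 2 of 3 Cav1-siRNA arrays. Dll4 was below background in both groups and has no fold. For Hes1 the log2 change was +0.27 (-0.65 to 1.19), and -0.14 within slide 2. The limma adjusted p was 0.9998 for each of these genes.

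Of the 89 other pathway genes tested, none was called after the Cav1 siRNA, and 3 had an unadjusted p under 0.05. Psen2, a presenilin of gamma-secretase, had 1.90, 1.86 and 1.87 on the Cav1-siRNA arrays and 2.51, 2.30 and 2.16 on the control-siRNA arrays (log2 change -0.44, limma adjusted p = 0.749), and its second probe gave -0.49. Dtx1 and Mfng were not above background on any Cav1-siRNA array and were at least 1.63-fold and at least 1.32-fold lower than in control-siRNA cells on the processed signal (adjusted p = 0.807 and 0.974), neither called. After normexp their log2 changes were -0.10 and -0.09 for Dtx1 and -0.06 and -0.05 for Mfng, smaller than those bounds. Elsewhere the smallest p in a role belonged to Maml1 (-0.23), Tle2 (-0.31), Neurl3 (-0.32), Hes2 (-0.43), Mfap5 (-0.39) and Ccnd1 (-0.30), none of them called. The endothelial marker sum was 3.55 to 3.83 in Cav1-siRNA cells and 5.18 to 5.77 in control-siRNA cells, with 4 of 25 markers at an unadjusted p under 0.05 and none called. Other sums were lower too, at 15.8 to 16.8 in Cav1-siRNA cells and 17.2 to 21.7 in control-siRNA cells for hepatocyte markers (5 of 16 at an unadjusted p under 0.05) and at 30.5 to 32.8 in Cav1-siRNA cells and 33.5 to 37.3 in control-siRNA cells for macrophage markers (2 of 14). The mesothelial and portal fibroblast sums of the 2 groups overlapped, with 3 of 12 markers at an unadjusted p under 0.05. These counts stand beside 1189 of all 23965 genes at a limma unadjusted p under 0.05. Of the markers, 10 endothelial, 7 hepatocyte and 4 macrophage genes were not above background on any Cav1-siRNA array. No marker on any list was called, and the part of other cell types in the values of Hey1, Dtx1 and Mfng was not tested.

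The profiles over all 9 arrays were also searched for the genes most like Notch1, Notch3 and Notch4, by the root mean square distance between log2 signals centred on each gene's mean. For Notch4, whose signal spanned 4.24 log2 units, the nearest were Stard8, Lipo1 and Tlr2, at 0.11 to 0.14 units. For Notch3, which spanned 0.66 units, they were B4galt1, Kdm5a and Smc6, at 0.05 to 0.06. For Notch1, which spanned 1.06 units, they were Pnma2, Pigr and Gab3, each at 0.12. These are descriptions of 9 arrays that share 2 slides.

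The promoters of the members were read from RefSeq on GRCm38.p6, as the 250 bases before and 50 after each transcription start, for the core motif of RBPJ, TGGGAA, on either strand. None of the 9 windows of the members held it, whereas 25.6% of 32851 RefSeq windows did. Windows of Hes1 and Hey1 were not analysed here.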

How the data were processed

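RNA from 9 samples was labelled with Cy3 and hybridised to 1-colour Agilent arrays. The submitters' processing notes name Agilent Feature Extraction 10.7.1.1 for the scans. Processed signals were taken from the deposited files, the linear intensity of each spot after background subtraction and removal of a multiplicative trend by the authors' scanner software, per the file headers, with no scaling between arrays. The alternatives also used the deposited mean and background intensity and the deposited table of the whole series, which holds the same intensity per probe.

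From these, log2 signals were computed here, less the 75th percentile of the array over its 59305 spots that are not controls. Repeated spots were averaged, leaving out outliers. Probes had to have a share of at least 0.5 of their spots flagged well above background on each of the 3 arrays in 1 group or more. This left 36885 of 56605 probes, and 68 more were left out for outlier spots. No spot was saturated, and no arrays were copies (highest correlation 0.9963). The brightest kept probe stood for its gene. Symbols were those of the files, replaced for 32994 probes through their accession in a RefSeq gene list of GRCm38.p6, used for names only. A further 520 were renamed by synonym.

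Comparisons used limma 3.58.1 under R 4.3.3 (lmFit with group means for all 9 arrays, then eBayes, two-sided, Benjamini-Hochberg over all 23965 genes, calls at 0.05), with the package data.table at version 1.17.8, Python 3.11.15, pandas 2.3.3 and matplotlib 3.10.9. The fit alone was tested on simulated gene-level values with planted changes, which does not test the scaling, the probe filter or the bounds. A gene below background on all arrays of a group is given as a bound, against its own signal there or, if higher, the dimmest signal flagged above background, array by array. The number of arrays limits the precision.

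Alternatives changed the scaling, the background correction (normexp, offset 50), the probe filter, the choice of probes, the source of values, array weights, the variance model, slide, the samples fitted, a replicate block and each array left out.

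The text names all members. From each pathway list it names up to 4 called genes of largest change per comparison, or the gene of smallest p where none was called. It also names the 3 nearest profiles per receptor and, from the marker lists, called genes among those of largest change and genes not above background. Genes repeated from several lists are named once or more. The members, lists and rules were chosen with earlier results of these data known. The genes with profiles nearest to Notch2 and the values of 1 cholangiocyte marker are not reported here.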

Additional observations from a re-analysis of the deposited data

How the results depend on the processing

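The direction and call of Notch2, Notch4, Jag1, Dll1, Dll4 and Hey1 in control-siRNA against quiescent cells were the same under each of the 23 alternatives that tested them, and no alternative called a member after the Cav1 siRNA. The direction of Dll4 was fixed by the probe filter wherever it was kept. Members called in control-siRNA against quiescent cells numbered 7, except 5 where probes had to be above background on all 9 arrays, which leaves out Dll1 and Dll4, and 6 in 3 settings that lost Notch3. Counts over all genes were 16328 called, of which 61.8% were higher, and fitting every kept probe gave 25010, with more features tested. The share of higher calls was 46.2% after normexp with the 75th percentile and 47.0% with no probe filter, where the median log2 change of all genes was -0.12 and -0.21 in place of +0.32. It was +0.47 with median scaling. Calls after the Cav1 siRNA numbered 0 as reported. They were 7 and 5 with normexp at the 75th percentile and with quantiles, 6 above background on all arrays, 656 with array weights, 4 with a trended robust variance and 5 with only the 2 groups fitted. Leaving out each array gave 0 to 2, the 2 without quiescent array 1. Cav1 was called with normexp at the 75th percentile (-1.25), with quantiles (-1.15), with array weights (-1.88), with only the 2 groups fitted (-1.76) and without quiescent array 1, and lay between -1.84 and -1.70 with an array left out. The cause was not tested in these cases.

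Signs turned only in changes that were not called, apart from Bhlhe41. In control-siRNA against quiescent cells Bhlhe41 was -0.25 with normexp at the 75th percentile, Hes1 -0.18 there and -0.40 with slide as a block or within slide, and Notch1 +0.0097 with array weights and between -0.40 and +0.13 with an array left out, the highest without quiescent array 2. In Cav1-siRNA against control-siRNA cells Dll1 was +0.089 with median scaling, +0.030 with either normexp setting, +0.14 with array weights and between -0.21 and +0.10 with an array left out. Notch2 was -0.061 and -0.054 with normexp, Notch3 lay between -0.044 and +0.082 with an array left out, and Hes1 was -0.14 with slide as a block or within slide and between -0.14 and +0.56 with an array left out. Array weights were the only setting to call Psen2, Dtx1 and Mfng there. The labels number replicates alike in each group, but same-numbered samples did not deviate together, with correlations of -0.055, -0.0226 and -0.0194 between control-siRNA and quiescent cells and -0.114, -0.0392 and 0.173 between Cav1-siRNA and control-siRNA cells. With the replicate number as a block, 15837 genes and 7 members were called in control-siRNA against quiescent cells and 0 of either after the Cav1 siRNA, so that this block changed no count by more than 1.5 times. Groups of 3 arrays, dim signals of Dll1, Dll4 and Hey1 near background and 1 probe per member limit what can be seen.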

Other observations

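Quiescent array 2 differed from the other quiescent arrays in the Notch genes, a pattern noticed after the values were seen and not tested. All 9 tested members were highest there among the quiescent arrays, while 33.1% of the 23965 genes were. Their excess over the mean of the other 2 quiescent arrays lay between 0.14 and 1.85 log2 units, with a median of 0.81, and the median over all genes was -0.06. The sums of the stellate, activated stellate and endothelial markers were highest on the same array, and the sums of the hepatocyte and macrophage markers were lowest there. In Cav1-siRNA cells each array was the highest for 3 of the 9 members. In control-siRNA cells array 1 was the highest for 6 of the 9, array 2 for 3 and array 3 for 0.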
